A study of Oryza sativa with 6 samples.

Results

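The 8 rice genes described here are the KNOX homeobox genes OSH1, OSH3, OSH6, OSH15 and OSH71, the BELL homeobox genes qSH1 and SH5, and the trihelix gene SH4. They are picked out by a list of locus identifiers, whose rule holds no measured value, as 8 of the 46732 loci in the table of RPKM values (reads scaled by the length of the gene model and by the size of the library). The libraries were made from young panicles, 8 to 10 cm long, of rice (Oryza sativa). NIL-qigl1HD385 carries the HD385 form of a locus for grain length, and NIL-qIGL1NIP the NIP form, in what the study calls near-isogenic backgrounds, that is, lines bred to be alike except around that locus. Both lines are labelled wild type, no treatment is named, and the segments that distinguish them are not listed. There were 3 libraries per line. Nothing says that they came from different plants, so the spread behind each p-value may be technical.

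KNOX proteins of the class represented here are homeodomain transcription factors that keep cells of the shoot and inflorescence meristems undifferentiated. They act in complexes with BELL homeodomain proteins, which direct them to their targets. In rice the same partnership is known from the pedicel, where an abscission layer forms below the spikelet and decides whether ripe grain sheds: qSH1 and SH5 are closely related BELL genes that promote this layer, SH5 acts in part by raising SH4, and SH4 is a transcription factor needed for the layer and a locus of rice domestication. OSH1 maintains the shoot meristem, and loss of OSH15 shortens the internodes. OSH15 has also been placed with SH5 and qSH1 in the repression of lignin genes in the abscission region.

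The names follow the list that defined the set, since the table holds identifiers only. A RefSeq gene table (assembly ASM3414082v1) lists 5 of the 8 names, all of them KNOX genes, on the chromosomes that the LOC_Os identifiers give. These are chromosome 3 for OSH1 (LOC_Os03g51690) and OSH3 (LOC_Os03g51710), chromosome 1 for OSH6 (LOC_Os01g19694), chromosome 7 for OSH15 (LOC_Os07g03770) and chromosome 5 for OSH71 (LOC_Os05g03884). By their identifiers, qSH1 (LOC_Os01g62920) is on chromosome 1, SH5 (LOC_Os05g38120) on chromosome 5 and SH4 (LOC_Os04g57530) on chromosome 4. OSH1 and OSH3 are near neighbours, with 1 locus between them both in the identifiers and in the RefSeq table. The tissue label could not be checked independently, since the only tissue markers among the named loci, OSH1 and OSH15 for meristem, belong to the set itself. Both were expressed in every library.

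Library totals, recovered from the steps between low RPKM values, lay between 43536754 and 52466060 reads. NIL-qigl1HD385 replicate 2 and NIL-qIGL1NIP replicate 3 stood apart within their lines: they held the lowest value of the line for 52.3% and 54.3% of the 23181 tested loci, those with a mean of at least 0.5 RPKM. All 8 genes described here were lowest of their line in NIL-qIGL1NIP replicate 3. In NIL-qigl1HD385 replicate 2, 4 of them were lowest and the other 4 highest. The log2 changes of the KNOX genes and SH4 are therefore also given without the libraries that move them most. In bulk panicles, fewer cells that express a gene and less RNA per cell cannot be told apart.

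OSH1 had the highest mean over the 6 libraries, 28.2 RPKM, which 4032 of the 46732 loci exceeded. It measured 22.8, 26.6 and 24.4 RPKM in NIL-qigl1HD385 replicates 1, 2 and 3, and 35.9, 37.1 and 22.2 RPKM in NIL-qIGL1NIP. Replicates 1 and 2 of NIL-qIGL1NIP lay above all libraries of the other line and replicate 3 below them, so the lines overlapped. With 2628 to 5119 reads per library, counting error is small: the exact 95% Poisson interval was 21.4 to 23.1 RPKM for the lowest library and 36.1 to 38.2 RPKM for the highest.

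OSH15, the internode gene, was second at a mean of 21.4 RPKM and varied most among the well-expressed genes. Its values were 18.2, 37.2 and 22.4 RPKM in NIL-qigl1HD385 and 20.2, 19.8 and 10.8 RPKM in NIL-qIGL1NIP. One library of each line stood out, replicate 2 of NIL-qigl1HD385 on the high side and replicate 3 of NIL-qIGL1NIP on the low side, and the others lay within 18.2 to 22.4 RPKM. The coefficient of variation within a line was 38.4% and 31.5%, against a median of 13.6% and 15.2% over the tested loci, while counting alone gives 2.24% and 2.73%.

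OSH71, a KNOX gene also known as Oskn2, was measured at 11.1, 6.34 and 10.8 RPKM in NIL-qigl1HD385 and at 15.5, 14.6 and 9.23 RPKM in NIL-qIGL1NIP. OSH6, the least abundant KNOX gene, had 2.44, 1.44 and 2.39 RPKM in NIL-qigl1HD385 and 3.76, 2.78 and 2.10 RPKM in NIL-qIGL1NIP. Both genes had their overall low in NIL-qigl1HD385 replicate 2, the library in which OSH15 was highest, and their overall high in NIL-qIGL1NIP replicate 1. OSH3, the neighbour of OSH1, was the steadiest KNOX gene of NIL-qigl1HD385, with 3.51, 3.19 and 3.33 RPKM there and 3.57, 3.10 and 2.38 RPKM in NIL-qIGL1NIP. Its coefficient of variation in NIL-qigl1HD385, 4.76%, was no larger than the 5.37% that counting gives.

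The 2 BELL genes were expressed at the level of the abundant KNOX genes and differed little between libraries. SH5 measured 17.2, 20.8 and 17.5 RPKM in NIL-qigl1HD385 and 19.0, 20.4 and 15.8 RPKM in NIL-qIGL1NIP. For qSH1 the values were 11.5, 13.9 and 13.3 RPKM in NIL-qigl1HD385 and 13.7, 15.02 and 11.4 RPKM in NIL-qIGL1NIP. The highest library exceeded the lowest by a factor of 1.32 for each BELL gene, against 1.67 for OSH1 and 3.45 for OSH15.

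SH4, the abscission transcription factor, had few reads in every library, while both BELL genes were well expressed. It had 0.144, 0.125 and 0.201 RPKM in NIL-qigl1HD385 and 0.273, 0.415 and 0.0867 RPKM in NIL-qIGL1NIP. These rest on 9, 8 and 12 reads against 19, 26 and 5 reads. Exact 95% Poisson intervals of the highest library, 0.271 to 0.608 RPKM, and the lowest, 0.0281 to 0.202 RPKM, did not meet, and both are libraries of NIL-qIGL1NIP. The mean of 0.208 RPKM was exceeded by 25993 of the 46732 loci and fell short of the 0.5 RPKM needed for the main test.

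**Figure D1:**
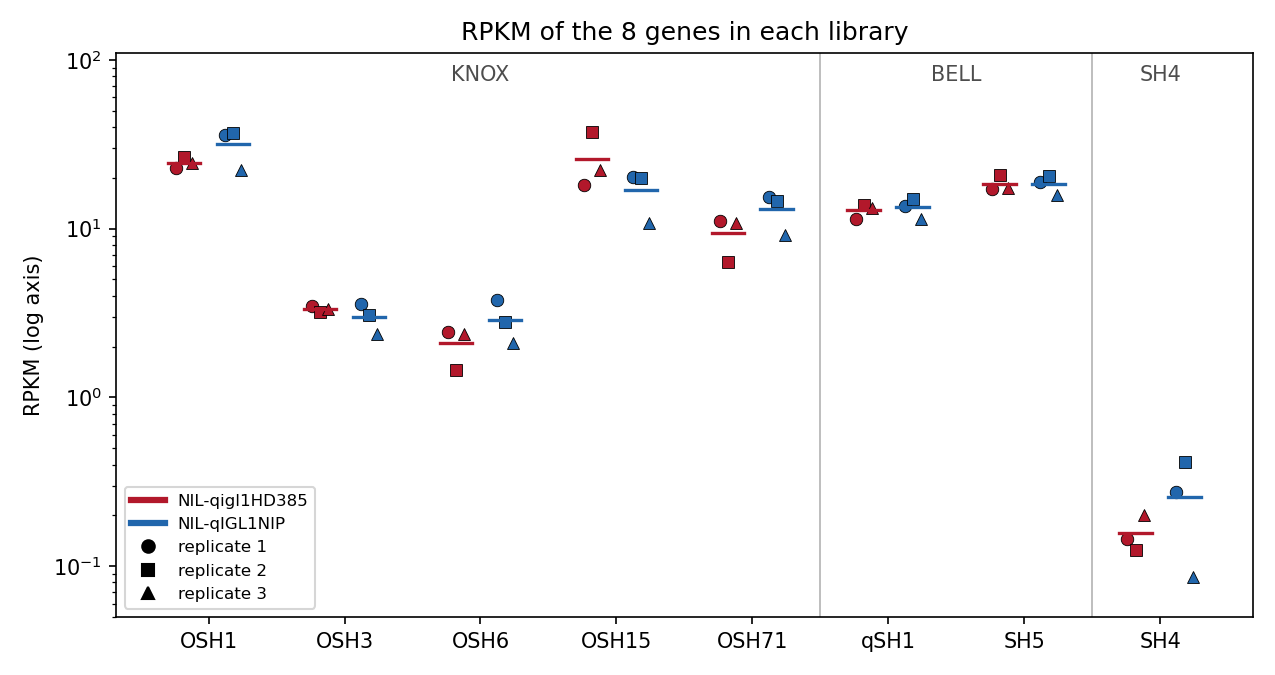
RPKM of each gene (log axis) in the 3 libraries of each line; symbols mark the replicate number and bars the line mean. The lines overlap for all 8 genes, NIL-qIGL1NIP replicate 3 is the lowest blue point throughout, and OSH15 is highest, while OSH6 and OSH71 are lowest, in NIL-qigl1HD385 replicate 2.

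Ordered by mean level per length, the genes ran OSH1, OSH15, SH5, qSH1, OSH71, OSH3, OSH6 and SH4. Not every step in this order held in each library. OSH1 was above OSH15 in 5 of 6 libraries, OSH15 above SH5 in 4 of 6 and OSH3 above OSH6 in 5 of 6, while OSH71 exceeded qSH1 in 1 of 6, so these neighbours were not separated beyond their spread. SH5 above qSH1, OSH71 above OSH3 and OSH6 above SH4 held in 6 of 6.

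No difference between the lines passed the test for any of the 8 genes. In limma on log2(RPKM + 0.5), fitted across all 23181 tested loci, 170 loci (0.733%) had a Benjamini-Hochberg adjusted p under 0.05, and 0 of the 7 genes that met the filter were among them. SH4, read from a fit of all 41045 loci with any reads, was not called either. At an unadjusted p under 0.05 the count was also 0 of 8, where 17.0% of the tested loci passed, and limma voom on the recovered reads called 0 of 8. The lines overlapped in 8 of 8 genes, while 26.5% of the tested loci had lines that did not overlap. The 7 tested genes had a median log2 change (NIL-qigl1HD385 minus NIL-qIGL1NIP) of -0.05 and a median size of change of 0.33, against 0.02 and 0.20 over all tested loci.

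The intervals leave room for changes of some size in the KNOX genes. OSH15 had the largest estimate, from a mean of 25.9 ± 9.97 RPKM in NIL-qigl1HD385 against 16.9 ± 5.34 RPKM in NIL-qIGL1NIP (SD, n = 3 per line). The difference was 0.59 on the log2 scale (SE 0.336, adjusted p = 0.421 in limma), with a 95% interval of -0.22 to 1.40, that is, from 0.859 to 2.63 times. The estimate was 0.30 without NIL-qigl1HD385 replicate 2, and also 0.30 without NIL-qIGL1NIP replicate 3.

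OSH71 and OSH6 had estimates in the opposite direction. OSH71 averaged 9.41 ± 2.66 against 13.1 ± 3.38 RPKM, giving -0.46 on the log2 scale (SE 0.276, 95% interval -1.13 to 0.20, adjusted p = 0.437 in limma). OSH6 averaged 2.09 ± 0.562 against 2.88 ± 0.832 RPKM, giving -0.38 (SE 0.249, interval -0.98 to 0.22, adjusted p = 0.476 in limma). Without NIL-qigl1HD385 replicate 2, these changes were -0.21 for OSH71 and -0.18 for OSH6, and without NIL-qIGL1NIP replicate 3 they were -0.69 and -0.55. Without NIL-qIGL1NIP replicate 1, OSH6 was at -0.20.

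The estimate for OSH1 moved with each library of NIL-qIGL1NIP. Its mean over all libraries was 24.6 ± 1.88 RPKM for NIL-qigl1HD385 and 31.8 ± 8.28 RPKM for NIL-qIGL1NIP, giving -0.33 on the log2 scale (SE 0.205, interval -0.82 to 0.16, adjusted p = 0.455 in limma). Without NIL-qIGL1NIP replicate 3 the log2 change was -0.56 (SE 0.091), with an unadjusted p of 0.00146 and an adjusted p of 0.13 in limma, still no call. Without replicate 1 or 2 of the same line it moved the other way, to -0.22 (unadjusted p of 0.371 in limma) and -0.20 (unadjusted p of 0.398 in limma). OSH3 averaged 3.34 ± 0.159 against 3.02 ± 0.6 RPKM, with a log2 change of 0.14 (interval -0.24 to 0.52, adjusted p = 0.679 in limma). This was 0.005 without NIL-qIGL1NIP replicate 3 and 0.26 without NIL-qIGL1NIP replicate 1.

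For the BELL genes the estimates were near 0 and the intervals narrower. SH5 averaged 18.5 ± 2.04 against 18.4 ± 2.39 RPKM, a log2 change of 0.01 with a 95% interval of -0.31 to 0.33 (adjusted p = 0.981 in limma), or 0.805 to 1.26 times. qSH1 averaged 12.9 ± 1.28 against 13.4 ± 1.84 RPKM, a log2 change of -0.05 with an interval of -0.37 to 0.28 (adjusted p = 0.894 in limma), or 0.773 to 1.22 times. The sign of both estimates turned under some alternatives. On the scale of the test, a 2-fold difference lies outside the intervals of qSH1, SH5, OSH3 and OSH1, and inside those of OSH15 and OSH71. For OSH6, at a mean of 2.5 RPKM, adding 0.5 RPKM shrinks a 2-fold difference to less than 1 on this scale. Its interval, which reaches -0.98, therefore does not exclude one. The log2 change of OSH6 was -0.44 (SE 0.291) with a pseudocount of 0.1 and -0.48 (SE 0.303) in voom.

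For SH4 the scale of the test compresses low values: the log2 change of RPKM + 0.5 was -0.19 (SE 0.168, adjusted p = 0.689 in limma without the filter). Its summed reads were 29 in NIL-qigl1HD385 and 50 in NIL-qIGL1NIP, and voom on these reads gave a log2 change of -0.50 (SE 0.645, adjusted p = 0.722). Single libraries decided the size of the change on the scale of the test: it was -0.36 without NIL-qIGL1NIP replicate 3 (unadjusted p of 0.0236 and adjusted p of 0.329 in limma) and -0.04 without NIL-qIGL1NIP replicate 2 (unadjusted p of 0.8 in limma). The coefficient of variation within NIL-qIGL1NIP was 63.7%, where counting gives 24.5%, and within NIL-qigl1HD385 25.3%, where counting gives 32.2%. No difference between the lines was detected in these libraries.

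**Figure D2:**
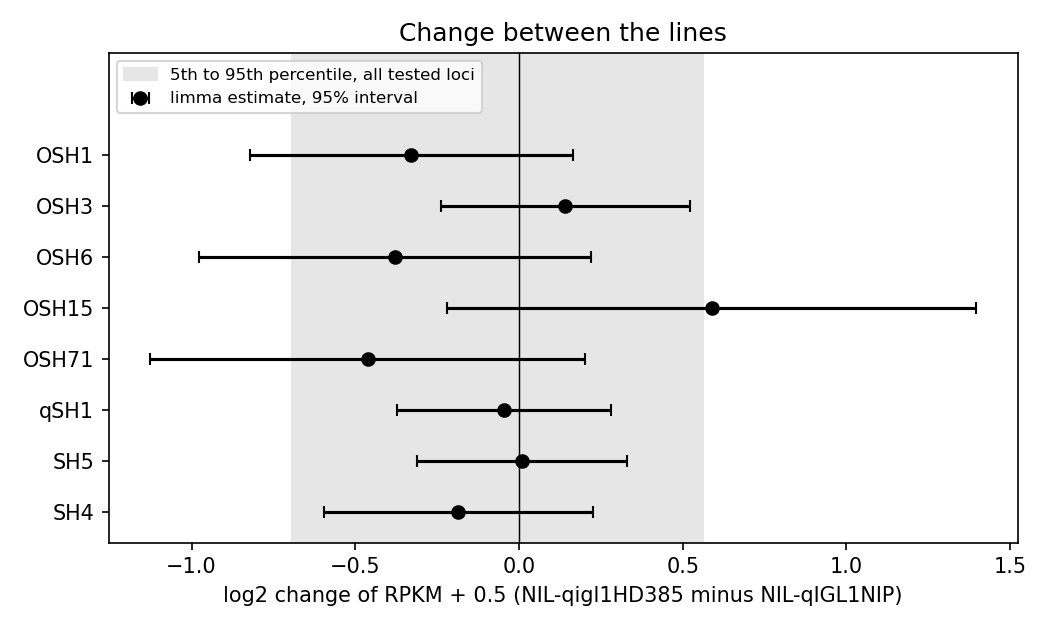
Estimated log2 change of RPKM + 0.5 (NIL-qigl1HD385 minus NIL-qIGL1NIP) with its 95% limma interval; SH4 comes from the fit without a filter. The grey band spans the 5th to 95th percentile of the tested loci, -0.69 to 0.56. Every interval crosses 0, and the BELL genes and OSH3 have the narrowest of the 7 genes tested with the filter.

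The summed level of the KNOX genes overlapped between the lines, while the shares of OSH1 and OSH15 in it did not. Separation of the lines was common in these data: 26.5% of the tested loci did not overlap in RPKM. Summed over the 5 KNOX genes, NIL-qigl1HD385 had 58.1, 74.7 and 63.3 RPKM and NIL-qIGL1NIP 79.0, 77.4 and 46.7 RPKM. The difference of means was -2.32 RPKM against SDs of 8.51 and 18.2 RPKM, and leaving out 1 library moved it between -12.8 and 3.31 RPKM, so that its sign was not fixed. The BELL pair summed to 31.4 ± 3.10 and 31.8 ± 4.23 RPKM (SD, n = 3 per line), or 0.481 ± 0.0146 and 0.484 ± 0.0865 of the KNOX sum.

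Within that pool, OSH1 made up 39.3, 35.6 and 38.5% of the KNOX sum in NIL-qigl1HD385 and 45.5, 48.0 and 47.6% in NIL-qIGL1NIP. The lines did not overlap, and NIL-qIGL1NIP replicate 3, low in every KNOX gene, had an OSH1 share like that of its line. OSH15 made up 31.3, 49.8 and 35.4% in NIL-qigl1HD385 and 25.6, 25.6 and 23.1% in NIL-qIGL1NIP, again without overlap and in the other direction. OSH71 held 19.1, 8.49 and 17.0% against 19.6, 18.8 and 19.8%, lower in NIL-qigl1HD385 mainly through replicate 2. OSH3 and OSH6 each held between 1.93 and 6.03% in every library. Shares within a sum are tied to each other, so a high OSH15 lowers the share of the others. An exact two-sided permutation test of 3 against 3 libraries cannot go below p = 0.10, so no share could pass. The shares were not among the planned results, and how often shares in other sums of genes separate the lines was not computed.

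**Figure D3:**
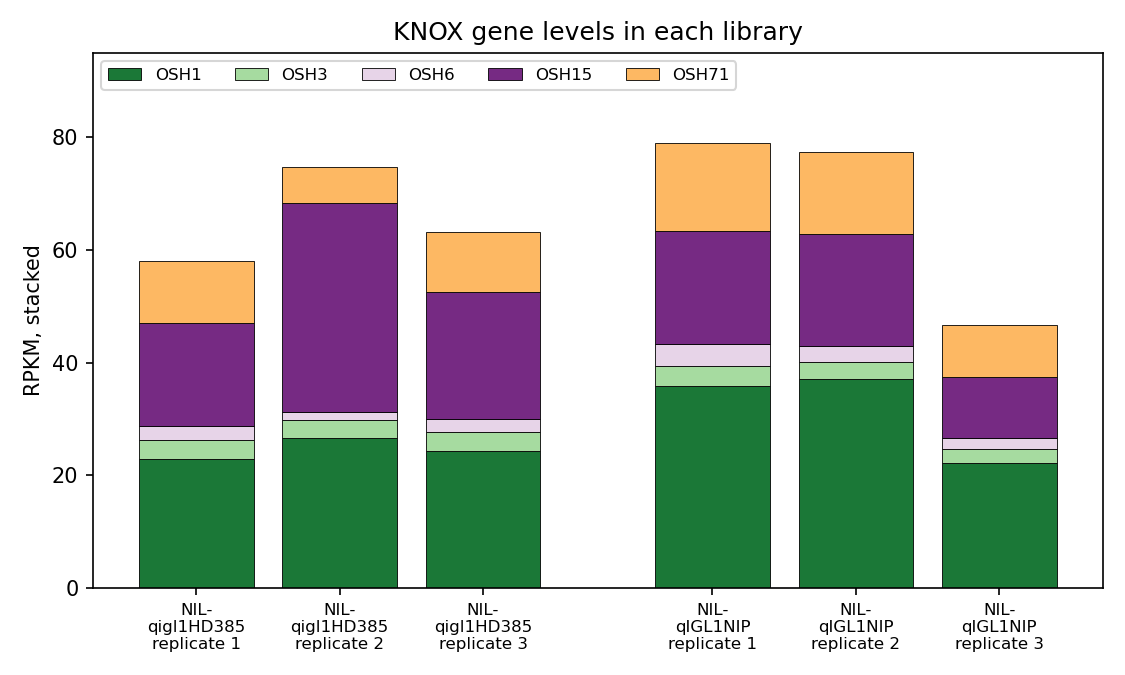
Stacked RPKM of the 5 KNOX genes in each library. The summed height ranges from 46.7 to 79.0 RPKM, and OSH15 is a larger part of each NIL-qigl1HD385 bar (31.3 to 49.8%) than of any NIL-qIGL1NIP bar (23.1 to 25.6%).

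The ratio of OSH15 to OSH1, which does not depend on how libraries are scaled, separated the lines. It was 0.797, 1.40 and 0.920 in NIL-qigl1HD385 and 0.562, 0.534 and 0.485 in NIL-qIGL1NIP. The mean log2 ratio was higher by 0.94 in NIL-qigl1HD385 (SE 0.252), or 1.92-fold, and leaving out each library in turn gave 0.70 to 1.11. An exact two-sided permutation test gave p = 0.10, the smallest value that 3 against 3 libraries allow, and p = 0.35 after Benjamini-Hochberg adjustment over the 28 gene pairs, so the difference did not pass. The pair was picked after the values had been seen.

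Separation of the lines in a ratio was common in these data. Of the 28 ratios among the 8 genes, 8 (28.6%) did not overlap between the lines, 4 of them with OSH15 and 3 with OSH1, counting their shared pair under both. The ratio of OSH15 to every other locus with reads in all libraries did not overlap for 17.6% of 22829 tested loci, and that of OSH1 for 27.5%. The other ratios without overlap were OSH1 to OSH3, OSH1 to SH5, OSH3 to OSH6, OSH3 to OSH71, OSH15 to OSH6, OSH15 to OSH71 and OSH15 to qSH1.

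Other pairs had a ratio that varied less over the 6 libraries. The SH5 to qSH1 ratio was 1.497, 1.499 and 1.309 in NIL-qigl1HD385 and 1.39, 1.36 and 1.39 in NIL-qIGL1NIP, the least variable of the 28 pairs with an SD of 0.0783 on the log2 scale. Of 22829 tested loci, qSH1 was the 65th closest to SH5 by this measure, and the median locus had an SD of 0.302. OSH71 to OSH6 was next, at 4.55, 4.39 and 4.51 in NIL-qigl1HD385 and 4.13, 5.23 and 4.40 in NIL-qIGL1NIP. The SD of this log2 ratio was 0.027 within NIL-qigl1HD385 and 0.177 within NIL-qIGL1NIP. Counting alone gives OSH6 a coefficient of variation of 7.96% and 6.64% in these lines. The closeness of the NIL-qigl1HD385 ratios is thus finer than counting resolves.

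For OSH71 and OSH6 the steadiness of the ratio stood beside large swings of each gene, 2.44-fold and 2.60-fold between their highest and lowest libraries. The SD of their log2 ratio was 0.114, and OSH6 ranked 11th of 22829 tested loci by closeness to OSH71, where the median SD was 0.506. OSH1 as a partner of OSH15 ranked 9836th, with an SD of 0.584 against a median of 0.614. In these ranks every locus is read from the same 6 libraries, so that whatever sets a library apart enters both genes of a pair, and pairs were picked after their ratios had been seen. How reads shared between homologous genes were counted is unknown here, and its part in these ratios was not tested.

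**Figure D4:**
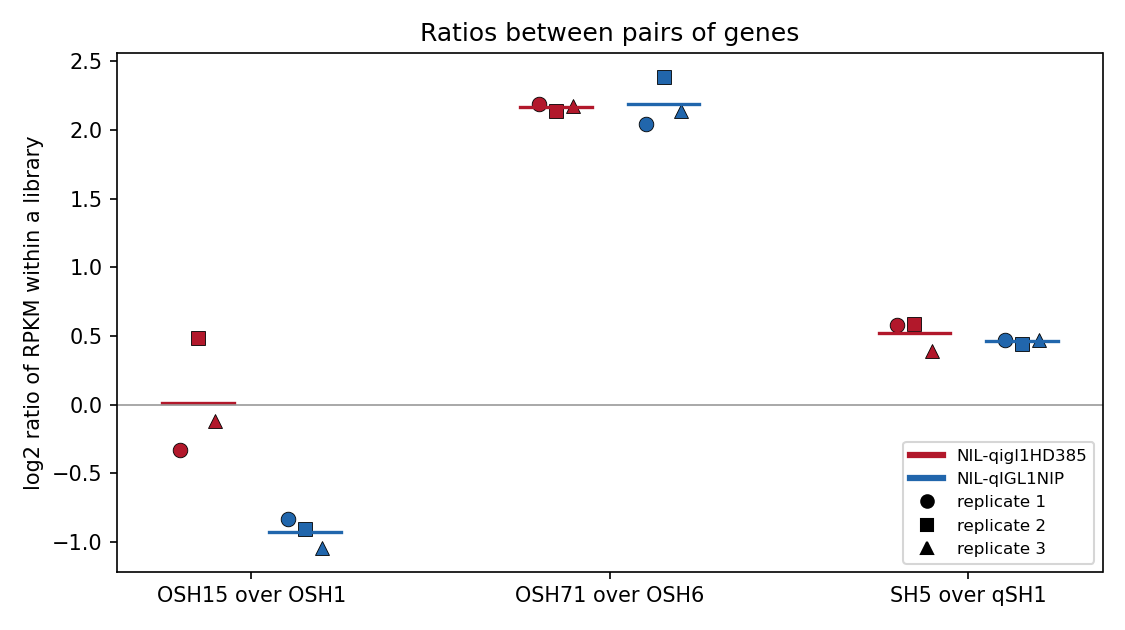
Log2 ratio of RPKM between 2 genes of the same library, by line, with bars at the line means. OSH15 over OSH1 lies higher in each NIL-qigl1HD385 library than in any NIL-qIGL1NIP library, while OSH71 over OSH6 and SH5 over qSH1 overlap between the lines.

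The loci whose profile was most like that of OSH1, by Pearson r of log2(RPKM + 0.5) over the 6 libraries, were LOC_Os08g19670 (r = 0.9972) and LOC_Os12g32290 (r = 0.9940). LOC_Os08g19670 averaged 23.2 ± 2.31 RPKM for NIL-qigl1HD385 against 33.4 ± 12.2 RPKM for NIL-qIGL1NIP, and LOC_Os12g32290 50.7 ± 6.56 and 76.9 ± 26.3 RPKM (SD, n = 3 per line). Neither was called. These were the highest of all coefficients computed over the tested loci, 151 loci had an r above 0.9, and the files do not pair the identifiers with names.

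Because near-isogenic lines can differ by chromosome segments, the 10 tested loci on either side of each gene, in identifier order, were also examined. Of the 143 distinct neighbours, 2 (1.4%) were called, against 0.733% of all tested loci. OSH1 and OSH3 are themselves among the 143, each as a neighbour of the other. LOC_Os07g03990, 4 tested loci after OSH15, had 3.56 ± 0.57 RPKM in NIL-qigl1HD385 and was listed at 0 in the 3 libraries of NIL-qIGL1NIP (adjusted p = 0.000492 in limma). LOC_Os05g38140, 2 tested loci after SH5, had 2.93 ± 0.269 against 5.42 ± 0.177 RPKM, or -0.79 on the log2 scale (SE 0.113, adjusted p = 0.0445 in limma). These 2 loci are given because they were called. The neighbours of OSH1, OSH3, OSH6, OSH71, qSH1 and SH4 included no called locus, and the median log2 change of the 20 neighbours of a gene lay between -0.12 and 0.12.

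**Figure D5:**
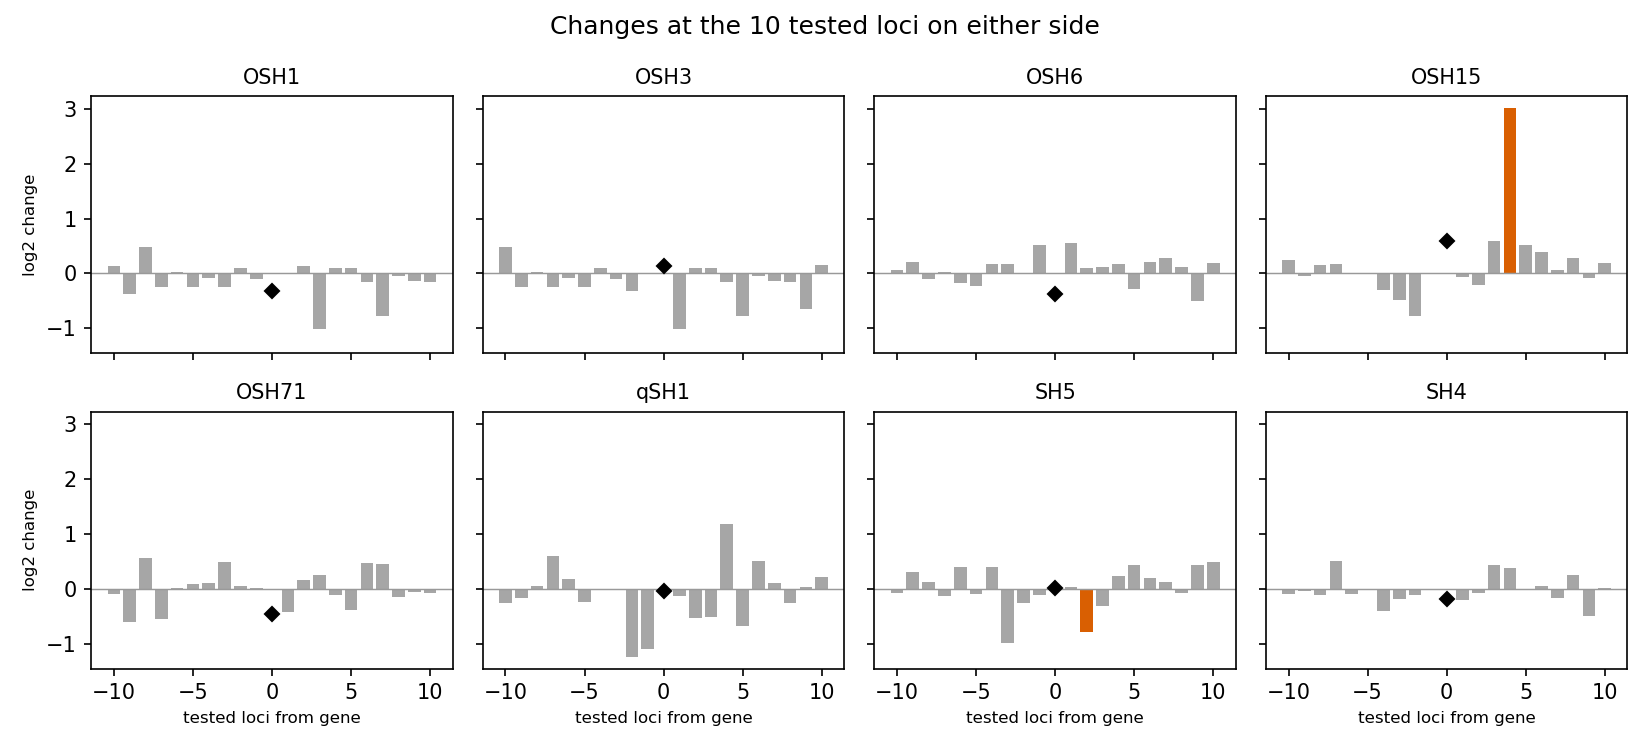
Log2 change of RPKM + 0.5 (NIL-qigl1HD385 minus NIL-qIGL1NIP) at the 10 tested loci before and after each gene, in identifier order; the diamond at 0 is the gene itself and orange bars are called loci. The 2 orange bars are LOC_Os07g03990 near OSH15 (3.01, against a line listed at 0) and LOC_Os05g38140 near SH5 (-0.79).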

How the data were processed

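Panicle RNA of 6 libraries was sequenced as stranded mRNA, per the labels' protocols. The authors deposited 1 RPKM value per locus and library. The submitters' processing notes name edgeR 3.12.1, Subread 1.5.1, featureCounts and Trimmomatic 0.36, without roles; the aligner, build and strand setting are not given in the sources available, and without strand, reads of overlapping antisense loci cannot be told apart.

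Values were taken as log2(RPKM + 0.5) and tested in R 4.3.3 with limma 3.58.1 (variance trend, no covariate), two-sided, over loci with a mean of at least 0.5 RPKM, with Benjamini-Hochberg adjustment over all of them. The pseudocount understates changes of low loci. Library totals and whole reads were recovered from the RPKM steps with Python 3.11.15: 100% of the 41045 loci above 0 gave whole reads, within 2e-05 reads plus 2e-08 of the value, with lengths between 60 and 17000 bases allowed. Where reads are few, as for SH4, the smallest matching numbers were taken. Recovery and fit were checked on simulated data. The simulated loci varied less within a line than OSH6, OSH15 and OSH71 did. They also varied less than OSH1 and OSH3 did in NIL-qIGL1NIP, where the coefficients of variation were 26% and 19.9%. Changes were set only at loci with more reads than SH4. The check therefore does not cover the fit of the KNOX genes or SH4. Poisson intervals cover counting error only.

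The rule for the genes uses no measured value, but the genes and lists were chosen with earlier results of these data known. All 8 genes are named whatever their values, the 2 loci most like the most abundant KNOX gene are given by identifier, and 0 of 12 further KNOX and abscission gene names could be paired with an identifier, so those genes are not analysed here. Alternatives were the pseudocount, the filter, scaling, a replicate block, voom and leaving out each library; only the ratio without each library was added after the data had been seen.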

Additional observations from a re-analysis of the deposited data

How the results depend on the processing

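In 111 refits of the 8 genes over 14 alternatives, 0 passed an adjusted p under 0.05 in limma; the smallest was 0.13, for OSH1 without NIL-qIGL1NIP replicate 3. Direction held in 105 refits. The log2 change of SH5 turned to -0.02 under median-ratio scaling, -0.01 under quantile normalization, -0.08 without NIL-qigl1HD385 replicate 2 and -0.10 without NIL-qIGL1NIP replicate 3 (0.01 over all libraries), and that of qSH1 to 0.04 (from -0.05) without NIL-qigl1HD385 replicate 1 or NIL-qIGL1NIP replicate 2; the cause was not tested. With 1 library left out, SH5 ranged from -0.10 to 0.087 and qSH1 from -0.15 to 0.04. SH4 has no value at a mean RPKM of at least 2. The 170 called loci of the whole table became 94 at that filter, where fewer loci are tested, 84 to 112 with 1 library left out, where fewer samples enter, and 127 in voom. The split of 87 higher and 83 lower became 73 and 88 under median-ratio scaling (161 loci). With the replicate block, 46 loci and 0 of the 8 genes were called; nothing in the labels pairs the libraries, same-numbered deviations correlated at -0.28, -0.25 and -0.41 across loci, and 0 of 6 libraries correlated best with its own number. The summed KNOX difference of -2.32 RPKM moved to between -12.8 and 3.31 RPKM with 1 library left out. SH4 rests on 5 to 26 reads a library.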
